A study of Homo sapiens with 35 samples.

Results

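Glycolysis and the hypoxia response were followed through 43 genes in H9, a line of human embryonic stem cells, which stayed pluripotent or were led towards mesendoderm, from which mesoderm and endoderm both arise. The genes were listed by name, with no threshold on their measured values, and all 43 are rows of the deposited table of 58581 genes. Of these, 25 encode glucose transporters, glycolytic enzymes and the proteins that handle pyruvate and lactate, and 18 belong to the hypoxia response. Poly(A) RNA was sequenced in 35 libraries of 25 groups. Per the labels, maintenance was on Matrigel in E8 with EDTA passaging, and single cells were seeded for the experiment. The t0 group (3 libraries) is the untreated control at time zero. Other cells were sampled every 6 h up to 48 h in E8 (the pluripotency control), in E6 (the control for spontaneous differentiation) or in BA, E6 to which 40 ng/mL of both BMP4 and Activin A had been added. The groups t0, BA 24 h, BA 48 h, E6 48 h and E8 48 h have 3 replicates, and the other 20 groups have 1 library. All cells are of 1 line, and the labels give neither the oxygen level, the cell density nor the times of feeding. Whether the replicates were separate cultures is not stated either, so p-values measure the spread between these libraries, which may be technical.

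Glycolysis breaks glucose down to pyruvate in the cytosol. Pluripotent stem cells are known to depend on it strongly and to export much of its end product as lactate. The hypoxia response is run by hypoxia-inducible factors (HIFs), dimers of an oxygen-regulated alpha subunit (HIF1A or EPAS1) and a stable partner. When oxygen is present, the EGLN prolyl hydroxylases mark the alpha subunit for destruction. When oxygen falls, the dimer binds hypoxia response elements with the core ACGTG or GCGTG and raises genes for glucose uptake, glycolysis, angiogenesis, mitophagy and collagen maturation. HIF activity is set mainly at the level of the alpha subunit protein, which RNA sequencing does not measure.

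Library totals ran from 11793453 to 37191969 counts. Levels are CPM (counts scaled to a common library size) after TMM, edgeR's correction for library composition. The members spanned 2 counts (CA9 in its lowest library) to 230256 counts (ENO1 in its highest), and the lowest counts, and so the least precise values, were those of CA9 (2 to 97 counts), ANKRD37 (7 to 502), ANGPTL4 (11 to 557) and EPAS1 (14 to 220), and of SLC16A3 at t0 (its lowest library held 8). Replicates 2 and 3 stood apart from replicate 1 in every replicated group. Across genes on the log scale, replicates 2 and 3 correlated at 0.992 to 0.995 and replicate 1 with either at 0.893 to 0.932. The libraries without a replicate number are handled together with replicate 1 and are called the time series (24 libraries from 6 to 48 h). Within the time series, 4 libraries were left out together in an alternative fit: BA 42 h, E8 18 h, E8 36 h and E6 18 h. They departed from their neighbouring hours in many genes. At least 1.5-fold above both neighbouring hours lay 3.14% of all genes in BA 42 h, 2.77% in E8 18 h, 3.71% in E8 36 h and 15.6% in E6 18 h. Of 41 members, 16, 11, 6 and 5 did so there. E8 24 h was kept, although 4.47% of all genes lay above both neighbouring hours there and 3.59% below. In that library 0 of 41 members did either. The choice of the 4 thus went along with the members' own values, and the fit without them is no independent check. The summed level of 8 primitive streak markers was 1.22 to 1.71 CPM at t0. In BA it reached 1187 CPM at 24 h in replicate 1 but 66.7 and 78.4 in replicates 2 and 3. At 48 h in BA these sums were 2537, 152 and 147 CPM, and those of 7 definitive endoderm markers were 3345, 50.8 and 49.9 CPM. The sum of 8 amnion and trophoblast markers was 147 to 527 CPM in BA at 48 h, with CGA under 1 CPM in every BA library. It was 5.65 to 5.68 CPM at t0, 4.45 to 23.9 in E6 and 3.96 to 14.9 in E8. The endoderm sum was 8.34 to 15.9, 8.23 to 15.4 and 6.01 to 27.0 CPM there. Not all markers followed the sums. KRT7 and GABRP of the amnion list and FOXA2 of the endoderm list were called lower in BA than in E6 and E8 over the time series, in the edgeR test described below. The 8 neuroectoderm markers reached 480.1 CPM in E6 at 42 h. The 10 pluripotency markers summed to 6579 to 7412 CPM at t0, 4766 to 7350 in E8, 5597 to 7496 in E6 and 3293 to 8283 in BA. Fibroblast markers summed to 197 to 778 CPM, with the defining genes DCN and LUM under 1 CPM in all libraries. The part that these cell states have in the members' levels was not tested, and in bulk RNA fewer cells of a type and less RNA per cell cannot be told apart.

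The promoters of the members were read for the HIF core, since members that moved together are described below. RefSeq promoters (GRCh38.p14) matched 38 of the 43 members. SLC2A3, SLC16A1, BNIP3L, VEGFA and NDRG1 had no entry. The letters ACGTG were searched on both strands in the 250 bases before the start site, where a match on the other strand reads CACGT. The run CACGTG, the general E-box, holds a match on each strand and counts as 2. ACGTG was present in 17 of 38 members (44.7%), in 18.5% of all 35116 promoters and in 22.6% of the 11927 promoters of genes tested in the replicated groups. ACGTG or GCGTG was present in 25 of 38 members and in 43.2% of all promoters. The list was made of known glycolysis and HIF target genes, so these shares are no independent evidence on the members. Of ACGTG alone, LDHA held the most, with 5 matches, followed by ALDOC and ANKRD37 with 3 each. The stretches below are written 5′ to 3′ in the sense of the gene with 1 core in capitals (CACGT where it lies on the other strand, as in P4HA1). They come from members called higher in E8 at 48 h against t0 in the fit with the replicate block, described below. These are a mitophagy receptor, 2 collagen-modifying enzymes, the oxygen sensor, 3 glycolytic enzymes, an mTORC1 inhibitor and ANKRD37, an ankyrin repeat protein.
BNIP3 (chr10:131982022-131982086, minus strand): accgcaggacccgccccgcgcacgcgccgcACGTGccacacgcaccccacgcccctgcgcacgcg
ANKRD37 (chr4:185396650-185396714, plus strand): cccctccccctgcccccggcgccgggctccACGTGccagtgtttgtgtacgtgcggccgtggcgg
PLOD2 (chr3:146161296-146161360, minus strand): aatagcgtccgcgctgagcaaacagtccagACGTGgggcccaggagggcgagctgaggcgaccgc
P4HA1 (chr10:73096918-73096982, minus strand): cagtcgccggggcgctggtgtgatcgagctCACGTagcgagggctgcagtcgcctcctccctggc
EGLN1 (chr1:231422288-231422330, minus strand): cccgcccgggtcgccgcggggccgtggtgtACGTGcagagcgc
LDHA (chr11:18394447-18394511, plus strand): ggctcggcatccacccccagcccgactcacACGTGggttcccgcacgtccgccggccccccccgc
PGK1 (chrX:78104016-78104080, plus strand): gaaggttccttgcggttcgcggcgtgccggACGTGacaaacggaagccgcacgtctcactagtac
ENO2 (chr12:6914432-6914496, plus strand): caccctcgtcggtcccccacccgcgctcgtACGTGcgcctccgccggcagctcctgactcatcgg
DDIT4 (chr10:72273769-72273833, plus strand): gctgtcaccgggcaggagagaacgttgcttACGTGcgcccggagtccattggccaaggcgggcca

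The core began 133 bases before the start site in BNIP3, 161 in ANKRD37, 146 in PLOD2, 86 in P4HA1 and LDHA, 13 in EGLN1, 202 in PGK1, 118 in ENO2 and 125 in DDIT4. In BNIP3, ANKRD37 and LDHA the capitals form part of a CACGTG run. The windows of SLC16A3, EGLN3, PDK1, MXI1 and SLC2A1 held neither ACGTG nor GCGTG, which says only that these letters are not in those 250 bases. HK2, GPI and GAPDH also held ACGTG and were not among the members called in E8 at 48 h against t0, described below. A match is a description of the sequence and not of binding.

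At t0, glycolytic enzymes were among the more abundant members per length (CPM per kb of merged exons, mean ± SD, n = 3). GAPDH, which oxidises glyceraldehyde phosphate, was at 634 ± 97.5 CPM per kb, enolase ENO1 at 560.1 ± 111 and the lactate dehydrogenase subunit LDHB at 418 ± 103. Related genes differed widely in level. ENO1 exceeded the neuronal enolase ENO2 (26.9 ± 5.9), and aldolase ALDOA (277 ± 92.4) exceeded ALDOC (14.3 ± 2.33), each with no overlap of the 3 libraries. Of these pairs, the monocarboxylate carriers were the most unequal: SLC16A1 (MCT1) was at 119 ± 22 CPM per kb and SLC16A3 (MCT4), a lactate exporter, at 0.207 ± 0.0631. The glucose transporters SLC2A1 (100.3 ± 3.05) and SLC2A3 (107 ± 32.7) did not differ beyond their spread, and neither did the phosphofructokinase subunits PFKL (13.9 ± 1.26) and PFKM (14.9 ± 1.06). HIF1A was at 55.6 ± 24.7 CPM per kb and EPAS1 (HIF-2 alpha) at 0.35 ± 0.139. The least abundant members were SLC16A3, ANKRD37, NDRG1, EPAS1 and CA9, the membrane carbonic anhydrase, at 0.377 ± 0.16. GAPDH, BNIP3, TPI1 and LDHA have processed pseudogenes in the table whose rows held up to 29%, 24.4%, 18.0% and 11.9% of the reads of gene and pseudogenes together, so their levels are uncertain where the counting could split reads.

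**Figure D1:**
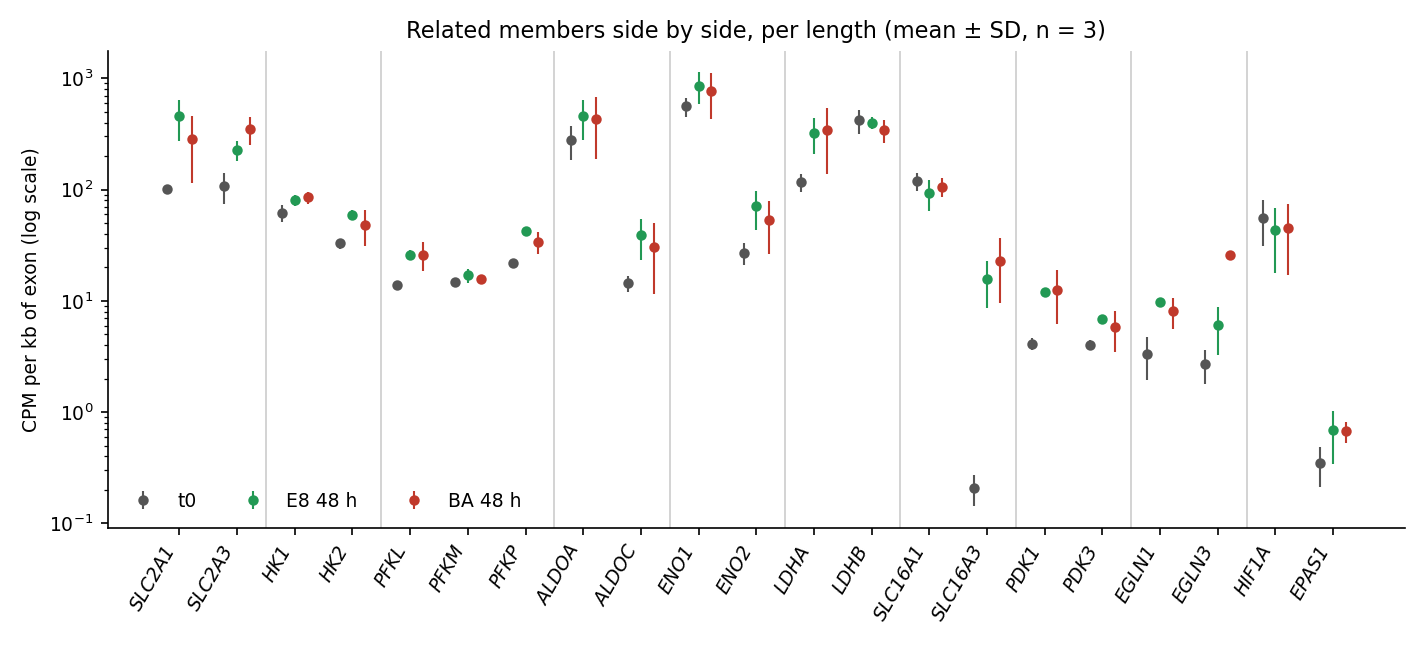
Level per length (CPM per kb of merged exons, log axis) of 21 related members at t0 (grey), in E8 at 48 h (green) and in BA at 48 h (red); points are means and bars SD over 3 libraries. SLC16A3 is the lowest at t0, and its E8 and BA means at 48 h lie far above it, while SLC16A1 stays between 92.5 and 119 CPM per kb in all 3 groups.

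Between t0 and 48 h in E8, the medium in which the cells had been maintained, most members came to higher levels, with larger medians among the hypoxia members than among the glycolysis members. Between libraries of the same replicate number, 37 of 43 members were higher at 48 h in all 3 pairs and 2, HIF1A and SLC16A1, were lower in all 3. The share of all genes that did so was not counted, and the data do not show pairing by number between replicates 2 and 3. In edgeR's quasi-likelihood test without a replicate block, 4 members rose (SLC16A3, PLOD2, BNIP3L and KDM3A) and 0 fell, where, of 21554 genes tested, 0.139% of all genes were called (0.135% higher and 0.00464% lower). With the replicate number as a block, which compares libraries within their set, 32 members rose and 2 fell, where 25.6% of all genes were called (12.6% higher and 13% lower). Within replicates 2 and 3 alone, 40 were higher and 2 lower, where 51.3% of all genes were called (26.9% higher and 24.4% lower). The median log2 change of the 43 members was 1.42 and that of all genes tested -0.01. All 3 E8 libraries lay above all 3 t0 libraries in 27 members, against 10.9% of all genes, and in 0 members below them, against 7.69%.

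The exporter SLC16A3 (chr17:82228397-82261129, GRCh38) had the largest change. It was at 1.44, 1.64 and 2.51 CPM in t0 replicates 1, 2 and 3 and at 68.8, 183 and 170.0 CPM at 48 h, which is 35.7-fold in replicate 1 and 69.8-fold over replicates 2 and 3 (after adding 0.5 CPM), with a log2 change of 6.26 ± 0.98 (SE, adjusted p = 0.0456). The groups did not overlap, and every 48 h library lay far above every t0 library. The other carrier, SLC16A1, was at 768, 563 and 567 CPM at t0 and 667, 422 and 385 at 48 h, and was called lower with the block alone, at -0.38 ± 0.11 (SE, adjusted p = 0.0243). PLOD2, a lysyl hydroxylase that prepares collagen for crosslinking, was at 32.8, 14.5 and 15.1 CPM at t0 and 105, 114 and 129 at 48 h, a log2 change of 2.49 ± 0.31 (SE, adjusted p = 0.0147). The collagen prolyl hydroxylase subunit P4HA2 went from 3.09, 5.13 and 5.01 to 21.1, 39.7 and 38.7 CPM and was called with the block, at 2.93 ± 0.22 (SE, adjusted p = 0.000125). The related subunit P4HA1 had 1.45 ± 0.25 (SE, adjusted p = 0.00315) with the block. BNIP3L, a mitophagy receptor, was at 57.8, 27.9 and 25.5 CPM at t0 and 172, 118 and 109 at 48 h, with 1.85 ± 0.29 (SE, adjusted p = 0.0466). Its relative BNIP3 went from 22.3, 31.9 and 38.5 to 168, 422 and 410.1 CPM, with 3.29 ± 0.43 (SE, adjusted p = 0.00105) under the block. Neither pair of groups overlapped, although BNIP3L started highest in replicate 1 and BNIP3 ended lowest there. KDM3A, a histone H3 lysine 9 demethylase, was at 63.6, 45.3 and 52.6 CPM at t0 and 172, 145 and 164 at 48 h, with 1.59 ± 0.26 (SE, adjusted p = 0.0466). The bifunctional enzyme PFKFB4, which sets the level of an activator of phosphofructokinase, went from 21.7, 18.7 and 19.8 to 115, 188 and 185 CPM, with 2.90 ± 0.40 (SE, adjusted p = 0.00132) under the block. The secreted lipase inhibitor ANGPTL4 was at 1.12, 1.41 and 1.39 CPM at t0 and 2.94, 11.8 and 11.9 at 48 h, and ANKRD37 at 0.426, 0.706 and 0.696 and 1.79, 6.02 and 5.69. With the block their log2 changes were 2.62 ± 0.42 (SE, adjusted p = 0.00257) and 2.86 ± 0.47 (SE, adjusted p = 0.00286).

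NDRG1, a growth and stress response gene, differed most between the sets. It was at 1.81, 3.11 and 3.9 CPM at t0 and 3.17, 73.7 and 87.7 at 48 h, 1.59-fold in replicate 1 and 20.3-fold over replicates 2 and 3, with 3.71 ± 0.84 (SE, adjusted p = 0.00956) under the block. Its 48 h value in replicate 1 fell between the t0 values, so the groups overlapped. Glucose transporter SLC2A1 was at 481, 483 and 457 CPM at t0 and 1152, 2782 and 2546 at 48 h, and LDHA, which makes lactate, at 574, 765 and 823 and 1174, 2448 and 2376. Both were called with the block alone, at 1.95 ± 0.38 (SE, adjusted p = 0.00532) and 1.36 ± 0.28 (SE, adjusted p = 0.00629). Of the 25 glycolysis members, those not called with the block were SLC2A3, HK1, HK2, GPI, PFKM, GAPDH and LDHB. The hypoxia members not called were ADM and EPAS1. HIF1A was at 433, 212 and 215 CPM at t0 and 373, 149 and 143 at 48 h and fell under the block, by 0.42 ± 0.10 (SE, adjusted p = 0.0137). EGLN1, the main oxygen sensor, rose under the block (1.55 ± 0.32 SE, adjusted p = 0.00683). Leaving out 1 library changed the count of 4 calls to 5 without t0 replicate 1 (0.134% of all genes), to 12 without E8 replicate 1 (2.80% of all genes) and to 0 without any one of t0 replicates 2 and 3 and E8 replicates 2 and 3. The adjusted p where a call was lost was 0.0718 to 0.268 for SLC16A3 (also without t0 replicate 1), 0.0792 to 0.16 for PLOD2, 0.158 to 0.268 for BNIP3L and 0.162 to 0.268 for KDM3A, while the log2 changes stayed between 1.47 (KDM3A) and 6.51 (SLC16A3).

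**Figure D2:**
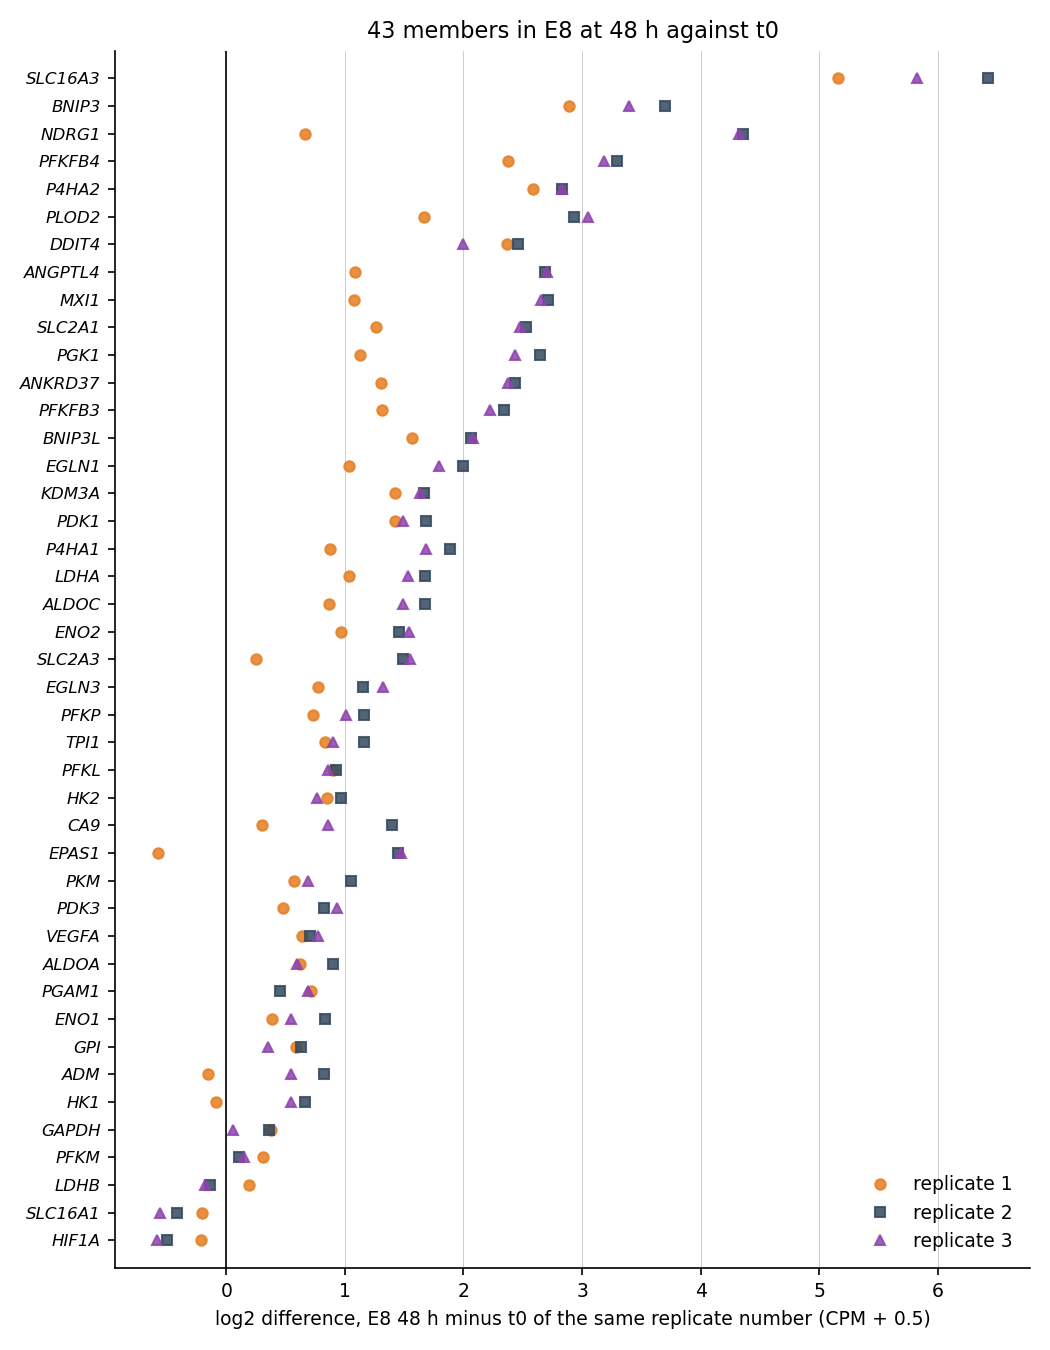
Log2 difference (CPM + 0.5) between E8 at 48 h and t0 for all 43 members, 1 point per replicate number (orange circles replicate 1, dark squares replicate 2, purple triangles replicate 3), sorted by the mean. 37 members lie above 0 in all 3 pairs, SLC16A3 is highest, and replicate 1 shows the smaller difference in most members, with the widest gap in NDRG1.

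At 48 h, few members differed between E6 and E8 by more than the spread of the libraries. The test without a block called 0 members between them, where 0.144% of all genes were called (0.0882% higher and 0.0557% lower); 3 members were below an unadjusted p of 0.05 (4.72% of all genes), and DESeq2 called 1 (1.05% of all genes). With the block 2 were called, where 2.84% of all genes were called (1.52% higher and 1.32% lower). The hexokinase HK1, which phosphorylates glucose, was lower in E6, at 264, 323 and 304 CPM against 443, 557 and 511 in E8 (-0.76 ± 0.17 SE, adjusted p = 0.0325). SLC16A1 was higher in E6, at 954, 529.7 and 542 CPM against 667, 422 and 385 (0.45 ± 0.11 SE, adjusted p = 0.0469). HK1 did not overlap between the groups and SLC16A1 did. Within replicates 2 and 3 alone, 14 were higher and 5 lower, where 18.4% of all genes were called (9.68% higher and 8.77% lower). Over the 8 hours of the time series, 0 of 42 members (CA9 was too low to test) and 0.0% of all 16971 genes were called between E6 and E8. 3 members were below an unadjusted p of 0.05 (1.27% of all genes), and DESeq2 called 0 (0.0% of all genes). The members with the largest mean difference were SLC16A3 (-1.39 ± 0.59), PDK1 (-0.58 ± 0.34), BNIP3 (-0.55 ± 0.32) and ANGPTL4 (-0.52 ± 0.32), followed by PFKFB4, PFKFB3, EPAS1 and SLC2A1 (-0.47 ± 0.24, -0.43 ± 0.16, 0.43 ± 0.23 and -0.40 ± 0.18, log2 ± SE). For SLC16A3, the E8 libraries at 18 and 36 h were high beside their neighbours. It was at 1.6 at 12 h, 15 at 18 h, 2.87 at 24 h, 1.08 at 30 h, 47.9 at 36 h and 24 at 42 h in E8 and at 1.69 at 12 h, 1.77 at 18 h, 2.48 at 24 h, 1.22 at 30 h, 4.57 at 36 h and 13.6 at 42 h in E6, in CPM.

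After 24 h in BA, 5 members were higher than at t0: the exporter SLC16A3, the oxygen sensor EGLN3, PLOD2, the pyruvate dehydrogenase kinase PDK1 and KDM3A. These 5 were called higher and 0 lower against t0, where 1.57% of all genes were called (1.26% higher and 0.315% lower). With the block 9 rose and 1 fell, where 8.95% of all genes were called (5.82% higher and 3.13% lower). Within replicates 2 and 3 alone, 25 were higher and 3 lower, where 20.7% of all genes were called (11.5% higher and 9.21% lower). SLC16A3 was at 12.6, 54.1 and 71.2 CPM in BA at 24 h against 1.44, 1.64 and 2.51 at t0, a log2 change of 4.65 ± 0.91 (SE, adjusted p = 0.0246). EGLN3, an inducible hydroxylase of the HIF alpha subunits (chr14:33924231-34462774), was at 98.8, 120.1 and 119 CPM against 12, 24.2 and 23.1, with 2.52 ± 0.54 (SE, adjusted p = 0.0399). The 3 BA libraries lay closer together for EGLN3 than for SLC16A3, and neither gene overlapped between the groups. PLOD2 was at 108, 74.7 and 97 CPM in BA (2.17 ± 0.30 SE, adjusted p = 0.00363). PDK1, which shuts pyruvate out of the mitochondrion's citrate cycle by inhibiting pyruvate dehydrogenase, was at 317, 215 and 241 against 69.3, 53.2 and 62 CPM (2.07 ± 0.36 SE, adjusted p = 0.0143). KDM3A was at 93.7, 124 and 149.9 CPM in BA (1.21 ± 0.26 SE, adjusted p = 0.0409). The block added ANGPTL4 (2.61, 6.44 and 6.33 CPM in BA, 1.91 ± 0.42 SE, adjusted p = 0.0152), P4HA2 (7.41, 19.7 and 23.9, 1.86 ± 0.22 SE, adjusted p = 0.00043), PFKFB4 (35.6, 80.4 and 109, 1.67 ± 0.39 SE, adjusted p = 0.0196) and BNIP3L (1.15 ± 0.23 SE, adjusted p = 0.00939), and SLC16A1 as lower (-0.58 ± 0.11 SE, adjusted p = 0.00606). The median log2 change of the members was 0.38, and 16 of 43 were higher and 6 lower in all 3 same-number pairs. These pair counts were not made over all genes. Several glycolytic members moved apart between the sets. LDHA was at 346, 1282 and 1134 CPM against 574, 765 and 823 at t0, and HK2 at 84.8, 202 and 241 against 221, 180.3 and 196: both were below t0 in replicate 1 and above it in replicates 2 and 3. The count of 5 became 3 without t0 replicate 1 or BA replicate 1, 1 without t0 replicate 2 or t0 replicate 3, and 2 without BA replicate 2 or BA replicate 3, where 0.376 to 0.927% of all genes were called. PLOD2 was called in each of these 6 fits. PDK1 was lost in 3 (adjusted p 0.0565 to 0.0844, without BA replicate 1 and t0 replicates 2 and 3), KDM3A in 5 (0.0612 to 0.19, in all but BA replicate 1), SLC16A3 in 5 (0.0579 to 0.133, likewise) and EGLN3 in all 6 (0.0828 to 0.133).

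From 24 to 48 h in BA 28 of 43 members were higher in all 3 same-number pairs and 0 lower, counts not made over all genes. Without a block the test called 0 members, where 0.455% of all genes were called (0.343% higher and 0.111% lower). Of the members, 13 were below an unadjusted p of 0.05 (10.3% of all genes), and DESeq2 called 4 (3.12% of all genes). With the block 14 rose and 0 fell, where 10% of all genes were called (6.32% higher and 3.69% lower). Within replicates 2 and 3 alone, 36 were higher and 0 lower, where 34.1% of all genes were called (18.5% higher and 15.6% lower). SLC16A3 reached 70, 296 and 255 CPM (2.27 ± 0.32 SE, adjusted p = 0.00211 with the block), BNIP3 went from 14.2, 121 and 137 to 67.6, 389 and 376 CPM (1.73 ± 0.40 SE, adjusted p = 0.0224) and MXI1, a MYC antagonist, from 10.1, 19.5 and 20.8 to 29.7, 56.2 and 60.6 (1.58 ± 0.28 SE, adjusted p = 0.00699). SLC16A3 and BNIP3 overlapped between 24 and 48 h through replicate 1, and MXI1 did not. DDIT4, an mTORC1 inhibitor, went from 9.54, 47.5 and 54.4 to 39.2, 140.5 and 115 CPM (1.51 ± 0.31 SE, adjusted p = 0.0126) and P4HA2 to 21.4, 57.9 and 57.8 (1.48 ± 0.20 SE, adjusted p = 0.0018). SLC2A3 went from 801, 773 and 900.0 to 1459, 2434 and 2566 CPM (1.38 ± 0.36 SE, adjusted p = 0.0361), and the angiogenic factor VEGFA from 28, 75.6 and 81.7 to 69.3, 184 and 168 (1.24 ± 0.16 SE, adjusted p = 0.0013). PLOD2 reached 272, 178 and 221 (1.29 ± 0.25 SE, adjusted p = 0.00987). P4HA1, LDHA, PKM, ENO2, TPI1 and SLC16A1 were the other 6, with log2 changes of 0.46 to 1.19. PDK1 did the opposite in replicate 1, at 317 CPM at 24 h and 82.2 at 48 h, while replicates 2 and 3 held 215 and 241 and then 214 and 263.

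At 48 h few members differed between BA and E6 without a block. PLOD2 was at 272, 178 and 221 CPM in BA and 56.3, 60.4 and 62.7 in E6 (1.93 ± 0.30 SE, adjusted p = 0.00427), and HK1 at 611, 496 and 502 and 264, 323 and 304 (0.88 ± 0.18 SE, adjusted p = 0.0208). Both were called higher in BA, with no overlap, and 0 were called lower, where 3.52% of all genes were called (2.03% higher and 1.49% lower). With the block 3 were higher and 5 lower in BA, where 22.1% of all genes were called (12.4% higher and 9.72% lower), so 8 of 43 members is no more than the background share. Within replicates 2 and 3 alone, 7 were higher and 15 lower, where 36.7% of all genes were called (18.8% higher and 17.9% lower). The third higher one was the pyruvate kinase PKM (3376, 3241 and 3123 CPM in BA, 2126, 2594 and 2421 in E6, 0.49 ± 0.12 SE, adjusted p = 0.0154). Lower were ANKRD37 (0.852, 3.45 and 3.12 against 1.35, 14.2 and 13.1 CPM, -1.76 ± 0.41 SE, adjusted p = 0.011), DDIT4 (39.2, 140.5 and 115 against 118, 222 and 223, -1.01 ± 0.30 SE, adjusted p = 0.032) and ENO2 (96.2, 298 and 287 against 178, 491 and 496, -0.76 ± 0.20 SE, adjusted p = 0.0182). PFKM (127, 112 and 105 against 159, 145 and 142 CPM, -0.34 ± 0.10 SE, adjusted p = 0.0245) and CA9 (0.197, 1.14 and 0.938 against 0.225, 2.46 and 2.76, -1.16 ± 0.37 SE, adjusted p = 0.0445) were also lower. Without a block PLOD2 was called in each of the 6 fits that left out 1 library, and HK1 in 1 of 6, the fit without BA replicate 2, with adjusted p values of 0.0507 to 0.0948 in the others. Against E8, 0 members were called without a block, where 2.44% of all genes were called (1.51% higher and 0.933% lower); 2 were below an unadjusted p of 0.05 (13.6% of all genes), and DESeq2 called 2 (6.03% of all genes). With the block EGLN3 (202, 178 and 185 CPM in BA, 21, 54.5 and 58.8 in E8, 2.29 ± 0.39 SE, adjusted p = 0.00243) and PLOD2 (105, 114 and 129 in E8, 0.94 ± 0.25 SE, adjusted p = 0.0226) were higher in BA, where 17.6% of all genes were called (10.3% higher and 7.31% lower). Within replicates 2 and 3 alone, 7 were higher and 6 lower, where 33.1% of all genes were called (17.5% higher and 15.7% lower). The comparisons above share the t0, BA, E6 and E8 libraries and are not independent of each other.

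**Figure D3:**
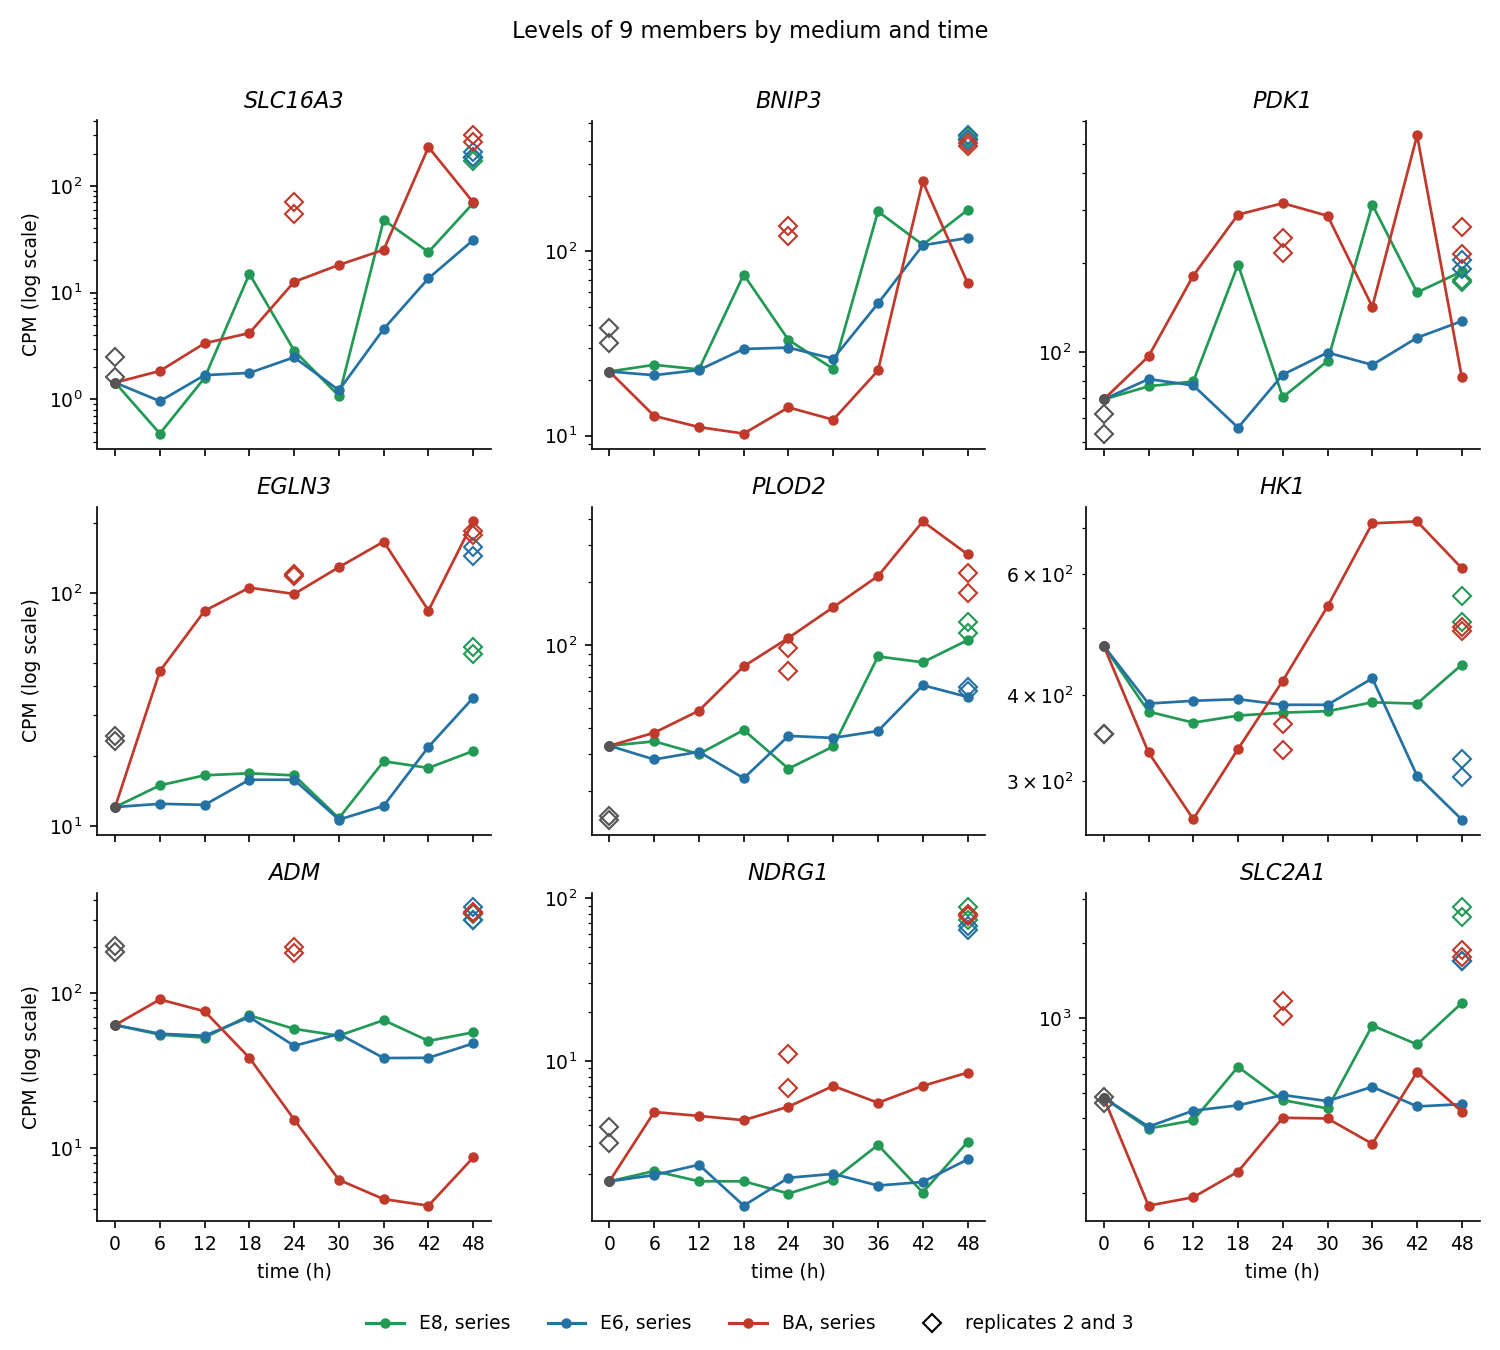
CPM (log axis) against time in h of 9 members in E8 (green), E6 (blue) and BA (red); lines join the time series from t0 replicate 1, and open diamonds are replicates 2 and 3 (grey at t0). EGLN3, PLOD2 and NDRG1 run higher in the BA series from 6 to 48 h. ADM falls to 4.22 CPM in the BA series while both other BA replicates at 48 h lie at 337 and 333 CPM. SLC16A3, BNIP3 and PDK1 have single high libraries at 18 and 36 h in E8 and at 42 h in BA.

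Over the time series, some hypoxia members were higher in BA and others lower. The glycolytic members called against E8 were all lower in BA. The mean difference over the 8 hours was tested with medium and hour as factors. Its p-values say whether a difference held over the hours of 1 series, not over cultures. Against E8, 4 of 42 members were higher and 13 lower in BA, where 31.0% of all genes were called (16.3% higher and 14.6% lower). Against E6, 7 were higher and 11 lower, where 30.9% of all genes were called (16.5% higher and 14.3% lower). The counts of higher members were near or below the background share and those of lower members above it. No test compared the members' share with the background. EGLN3 was highest relative to the controls: it ran from 46.1 to 202 CPM (median 102) in BA, from 10.6 to 35.5 CPM (median 14.1) in E6 and from 10.8 to 21 CPM (median 16.7) in E8. It was higher in BA at 8 of 8 hours against each medium, with a mean log2 difference of 2.71 ± 0.20 (SE, adjusted p = 2.89e-08) against E8 and 2.75 ± 0.20 (SE, adjusted p = 2.11e-08) against E6. It stood at 46.1 CPM at 6 h and between 83.7 (12 h) and 202 (48 h) afterwards. In replicates 2 and 3 at 48 h the gap to E6 was small. EGLN3 held 178 and 185 CPM in BA there, 144 and 156 in E6 and 54.5 and 58.8 in E8. It was not called between BA and E6 at 48 h, with or without the block. NDRG1 ran from 4.31 to 8.46 CPM (median 5.37) in BA, 1.28 to 2.47 CPM (median 1.94) in E6 and 1.53 to 3.17 CPM (median 1.83) in E8, without overlap and at 8 of 8 hours, with 1.48 ± 0.15 (SE, adjusted p = 8.12e-07) against E8 and 1.59 ± 0.15 (SE, adjusted p = 3.62e-07) against E6. In replicates 2 and 3 at 48 h the same gene held 79.7 and 77.5 CPM in BA, 67.7 and 63.4 in E6 and 73.7 and 87.7 in E8, and those groups overlapped between BA and E8. PLOD2 ran from 37.9 to 391 CPM (median 129.9) in BA, 22.9 to 64.1 CPM (median 36.2) in E6 and 25.5 to 105 CPM (median 36.8) in E8, higher in BA at 8 of 8 hours, with 1.42 ± 0.23 (SE, adjusted p = 0.000158) against E8 and 1.77 ± 0.24 (SE, adjusted p = 1.95e-05) against E6. EPAS1, the HIF-2 alpha subunit, was low throughout, from 2.44 to 6.1 CPM (median 3.27) in BA and 0.875 to 3.72 CPM (median 2.16) in E8. Its mean log2 difference was 0.91 ± 0.23 (SE, adjusted p = 0.00494) against E8, and it was higher in BA at 7 of 8 hours. In replicates 2 and 3 at 48 h EPAS1 was lower in BA, at 4.52 and 4.09 CPM against 5.5 and 7.26 in E8.

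Against E6 alone, SLC16A3 (1.85 to 230.3 CPM with median 15.4 in BA, 0.965 to 31.1 CPM with median 2.13 in E6), PDK1 (82.2 to 535 CPM with median 234 and 55.7 to 127 CPM with median 87.3), ANGPTL4 (0.598 to 7.94 CPM with median 2.33 and 0.813 to 2.59 CPM with median 1.29) and P4HA2 were also called higher in BA. Their mean log2 differences were 2.44 ± 0.58 (SE, adjusted p = 0.0038), 1.3 ± 0.34 (SE, adjusted p = 0.0074), 0.91 ± 0.31 (SE, adjusted p = 0.0344) and 0.86 ± 0.27 (SE, adjusted p = 0.0234). PDK1 in BA was at 96.7 at 6 h, 181 at 12 h, 289.7 at 18 h, 317 at 24 h, 287 at 30 h, 142 at 36 h, 535 at 42 h and 82.2 at 48 h CPM. SLC16A3 was higher in BA than in E6 at 8 of 8 hours. In replicates 2 and 3 at 48 h ANGPTL4 went the other way, at 8.09 and 6.51 CPM in BA and 15.8 and 14.8 in E6. SLC16A3, PDK1 and P4HA2 were higher in BA than in E6 there. The call of P4HA2 was lost without 30 h or 42 h (adjusted p 0.0569 to 0.073) and that of ANGPTL4 without any one of 24 to 48 h (0.0581 to 0.105).

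Members lower in BA led with ADM, which encodes the vasodilator peptide adrenomedullin (chr11:10304680-10307397). It was at 91.3 at 6 h, 76.5 at 12 h, 38.2 at 18 h, 15.2 at 24 h, 6.2 at 30 h, 4.65 at 36 h, 4.22 at 42 h and 8.65 at 48 h CPM in BA, and ran from 38.1 to 70.2 CPM (median 50.2) in E6 and 49.2 to 72 CPM (median 55) in E8. BA was above the controls at 6 and 12 h and below them from 18 h on. Its mean log2 difference was -1.57 ± 0.48 (SE, adjusted p = 0.0188) against E8 and -1.3 ± 0.47 (SE, adjusted p = 0.0454) against E6. In replicates 2 and 3 ADM took another course, at 185 and 203 CPM at t0, 183 and 201 at 24 h and 337 and 333 at 48 h in BA. BNIP3 was lower in BA than in E8 at 7 of 8 hours (10.2 to 240.1 CPM with median 13.5 and 22.9 to 168 CPM with median 54, -1.24 ± 0.34 SE, adjusted p = 0.00883), the exception being 42 h. The hexokinase HK2 (83.9 to 441 CPM with median 93.7 in BA, 173 to 406 CPM with median 247 in E8, 119 to 350.4 CPM with median 218 in E6) had -1.14 ± 0.19 (SE, adjusted p = 0.000159) against E8 and -0.89 ± 0.19 (SE, adjusted p = 0.00134) against E6, again with 42 h as the 1 hour above. SLC2A1 (177 to 609 CPM with median 355 in BA, 362 to 1152 CPM with median 555 in E8, 368 to 532 CPM with median 450.4 in E6) had -0.90 ± 0.19 (SE, adjusted p = 0.00121) against E8 and -0.50 ± 0.18 (SE, adjusted p = 0.0492) against E6. VEGFA was lower at 8 of 8 hours (15.7 to 69.3 CPM with median 28.5 in BA, 43.7 to 84.5 CPM with median 54 in E8), with -0.86 ± 0.15 (SE, adjusted p = 0.000304) and -0.72 ± 0.15 (SE, adjusted p = 0.00126). In replicates 2 and 3 at 48 h, HK2 was at 353 and 358 CPM in BA, 352 and 333 in E8 and 488 and 480 in E6. VEGFA was at 184 and 168 in BA, 156 and 177 in E8 and 243 and 255 in E6. Neither gene lay below E8 in both replicates, and both genes lay below E6. SLC2A1, at 1875 and 1764 in BA, lay below E8 (2782 and 2546) but not E6 (1703 and 1694). BNIP3 (389 and 376) lay below E8 (422 and 410). Lower in the time series against both media with mean differences between -0.34 and -0.62 were ALDOC, GPI, PDK3, PFKP, ENO2 and LDHB. EGLN1 and TPI1 were called lower against E8 alone, and SLC16A1 against E6 alone. HIF1A itself ran from 345 to 443 CPM (median 390.4) in BA and 317 to 442 CPM (median 387) in E8 and was not called (adjusted p = 0.981).

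Leaving out each hour in turn gave 13 to 23 calls against E8, where 24.0 to 35.5% of all genes were called, and 11 to 19 against E6, where 24.0 to 32.7% were, with 11 without 30 h (25.1% of all genes). The calls of EGLN3, NDRG1, PLOD2, HK2, VEGFA, GPI and LDHB held in both comparisons in all of these fits. Against E8, ADM was not called without any one of 24 to 48 h (adjusted p 0.053 to 0.0655), EGLN1 without any one of 6, 12, 18, 30, 36 or 48 h (0.0665 to 0.144), TPI1 without any one of 12, 24, 30, 36 or 48 h (0.0762 to 0.133) and PDK3 without 30 or 36 h (0.0502 to 0.061). Against E6, ADM was not called without any one of 18 to 48 h (0.0643 to 0.136), SLC2A1 without any one of 6, 12, 18, 30 or 36 h (0.0522 to 0.15), PFKP without any one of 12, 18, 30 or 36 h (0.0518 to 0.0836), ENO2 without any one of 12, 18, 30 or 48 h (0.0681 to 0.126), ALDOC without any one of 18, 30 or 48 h (0.0548 to 0.0579) and SLC16A1 without 6 or 12 h (0.0538 to 0.0657). Without the 4 libraries that stood apart, 23 members were called against E8 (30.1% of all genes) and 21 against E6 (30.8% of all genes), and the calls of ADM (both comparisons) and EPAS1 were lost.

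**Figure D4:**
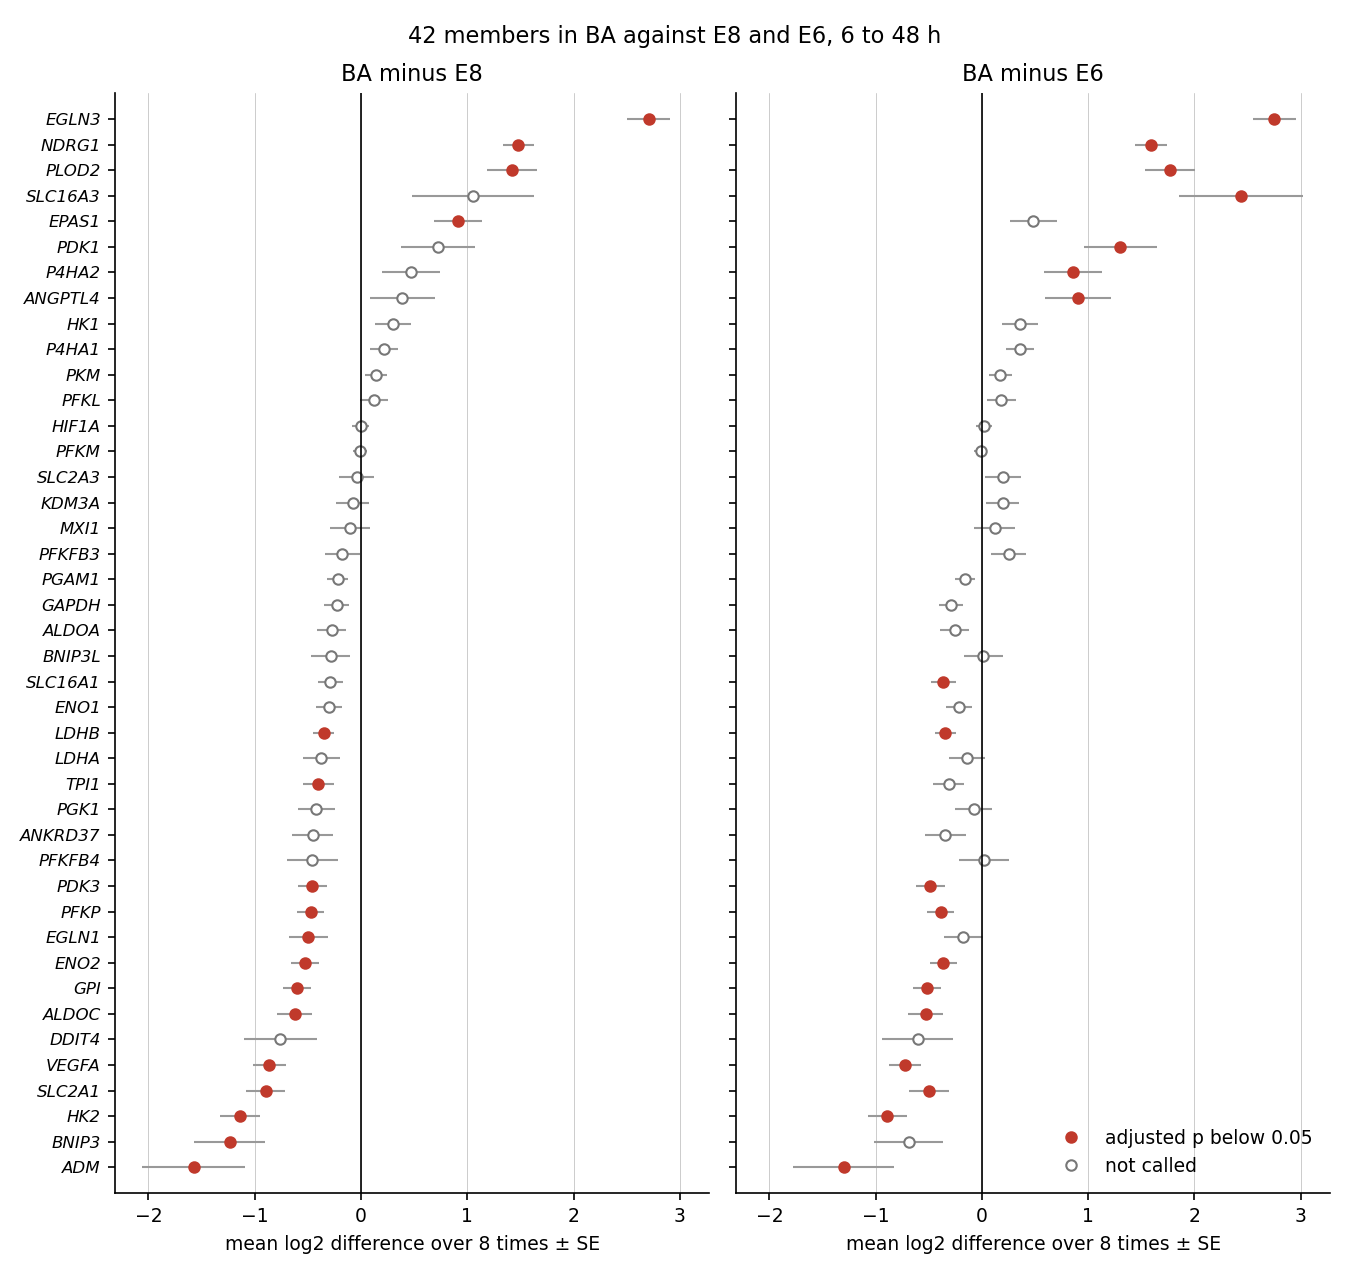
Mean log2 difference over the 8 hours (± SE) of 42 members in BA against E8 (left) and against E6 (right), sorted by the left panel; filled red points have an adjusted p below 0.05 and open points do not. EGLN3, NDRG1 and PLOD2 lie at the high end of both panels, ADM at the low end, and HK2, SLC2A1, VEGFA, GPI and ENO2 are filled on the low side of both.

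The members' change with time was fitted as a slope per 24 h in each medium. In BA 23 members rose and 1, ADM, fell, where 20.6% of all genes were called (10.2% higher and 10.4% lower). The median slope of the members was 0.62 and that of all genes -0.01 log2 units per 24 h. In E6 1 member rose, DDIT4 (2.12 ± 0.40 SE, adjusted p = 0.0363), where 0.23% of all genes were called (0.177% higher and 0.053% lower), and in E8 edgeR called 0 members and 0.0% of all genes; 24 of 42 members were below an unadjusted p of 0.05 there, as were 5.14% of all genes. A call in BA and none in E8 does not show that the slopes differ. The test of the difference itself called 3 of 42 members against E8, where 9.39% of all genes were called, and 5 against E6, where 9.17% were, so neither count is far from the background. They are given among the closer looks. The steepest slopes in BA were those of SLC16A3 (4.03 ± 0.71 SE, adjusted p = 0.000198), BNIP3 (2.40 ± 0.49 SE, adjusted p = 0.000858), PLOD2 (1.95 ± 0.22 SE, adjusted p = 8.32e-07), ANGPTL4 (1.81 ± 0.35 SE, adjusted p = 0.000544) and MXI1 (1.47 ± 0.22 SE, adjusted p = 2.69e-05), and ADM fell by 2.51 ± 0.28 (SE, adjusted p = 7.24e-07). Among glycolytic members HK1 (0.82 ± 0.11 SE, adjusted p = 1.22e-05), PKM (0.68 ± 0.10 SE, adjusted p = 3.34e-05), SLC2A1 (0.91 ± 0.18 SE, adjusted p = 0.000569) and HK2 (1.04 ± 0.27 SE, adjusted p = 0.00641) rose. Without 42 h the count in BA was 15 (16.4% of all genes), with 13 rising and 2, ADM and GPI, falling. HK2, PFKFB4, P4HA2, EGLN1, KDM3A, BNIP3L, ANKRD37, LDHA, NDRG1 and PFKM were then not called (adjusted p 0.0514 for P4HA2 to 0.488 for BNIP3L). Without 48 h SLC2A3 (0.123), EGLN3 (adjusted p 0.0805 to 0.109, also without 6 h) and NDRG1 were not called, and DDIT4 in E6 lost its call without any one of 12, 24, 42 or 48 h (0.0874 to 0.973).

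**Figure D5:**
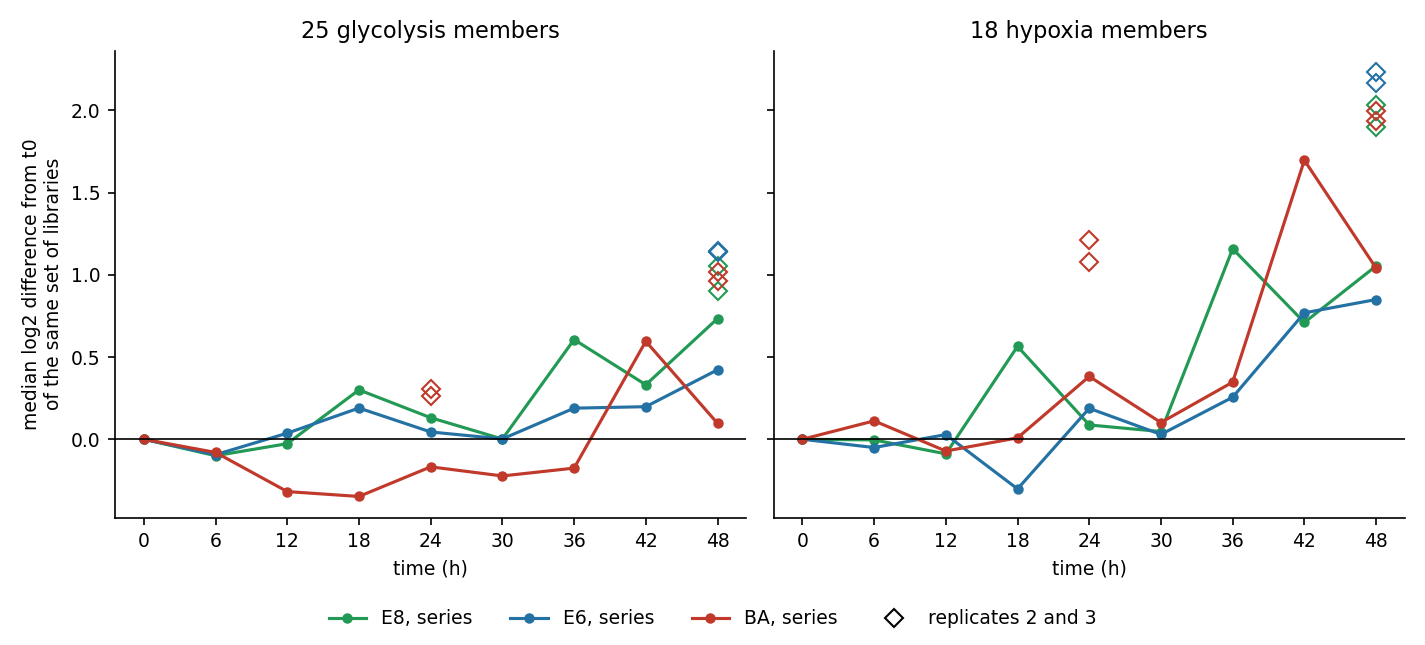
Median log2 difference (CPM + 0.5) from t0 of the 25 glycolysis members (left) and the 18 hypoxia members (right) against time in h; lines are the time series against t0 replicate 1, and open diamonds are replicates 2 and 3 against t0 of the same number. At 48 h the hypoxia medians lie between 0.85 and 2.23 and the glycolysis medians between 0.10 and 1.14, and the BA series stays below 0 for glycolysis from 6 to 36 h.

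The median over the hypoxia members lay above that over the glycolysis members in every 48 h library. Against t0 of the same number, the 18 hypoxia members had medians of 1.05, 2.03 and 1.90 in E8 replicates 1, 2 and 3, of 0.85, 2.23 and 2.17 in E6 and of 1.04, 2.0 and 1.94 in BA, on the log2 scale. The 25 glycolysis members had 0.73, 1.05 and 0.90 in E8, 0.42, 1.14 and 1.14 in E6 and 0.10, 1.02 and 0.96 in BA, while the median of all genes stayed between -0.06 and 0.01 in these 9 libraries. Replicates 2 and 3 were above replicate 1 in each medium. In BA at 24 h the hypoxia medians were 0.38, 1.08 and 1.21, and the glycolysis medians -0.17, 0.26 and 0.31.

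Other genes of these pathways were read from lists that hold no member. Of 34 other glycolysis and pyruvate genes, 30 were tested in the replicated groups. Between E8 at 48 h and t0, 0 were called without a block and 7 rose and 3 fell with it. In that fit 25.6% of all genes were called (12.6% higher and 13% lower). The largest were the glucose transporters SLC2A12 (1.83 ± 0.54) and SLC2A4 (1.40 ± 0.26) and the glycogen enzymes PGM1 (1.63 ± 0.28) and GBE1 (1.18 ± 0.40). BA at 48 h differed from E6 in 3 of them without a block. The gluconeogenic phosphatase FBP1 was lower, at 0.131, 0.683 and 0.575 CPM against 3.48, 2.72 and 2.04 (-2.45 ± 0.50 SE, adjusted p = 0.0189), as was the arrestin ARRDC4, at 3.28, 5.07 and 5.33 against 17.9, 15.5 and 14.8 (-1.77 ± 0.34 SE, adjusted p = 0.014). The pyruvate dehydrogenase subunit PDHB was higher, at 143, 246 and 243 against 78.1, 101 and 98.4 (1.22 ± 0.25 SE, adjusted p = 0.0191). The same 3 genes were called in the same directions against E8, with -3.59 ± 0.52, -1.48 ± 0.34 and 1.09 ± 0.25. Of 30 other HIF targets, 29 were tested. KDM4B, a histone demethylase, rose between t0 (57.7, 51.9 and 52 CPM) and E8 at 48 h (118, 128 and 118, 1.19 ± 0.20 SE, adjusted p = 0.0466), and with the block, where 25.6% of all genes were called, 19 rose and 1, the haem oxygenase HMOX1, fell (-1.10 ± 0.28). The largest with the block were the host transcript MIR210HG (4.78 ± 0.50), SPAG4 (4.55 ± 0.43), PPFIA4 (4.51 ± 0.36), BHLHE40 (2.90 ± 0.71), INSIG2 (2.36 ± 0.31) and the hormone STC1 (2.13 ± 0.62). The median of the list was 1.19 without a block and that of all genes -0.01. At 24 h in BA the crosslinking oxidase LOX rose against t0 (5.97, 4.59 and 4.88 against 1.87, 1.38 and 1.01 CPM, 1.87 ± 0.40 SE, adjusted p = 0.0411). Over the time series 6 of 28 HIF targets were higher and 10 lower in BA than in E8, where 31.0% of all genes were called. BHLHE40 (2.62 ± 0.31) and the carbonic anhydrase CA12 (3.15 ± 0.80) were higher, and STC1 (-2.17 ± 0.33), HMOX1 (-1.84 ± 0.24), RIMKLA (-2.05 ± 0.39) and IGFBP3 (-1.64 ± 0.38) lower. Of 13 other regulators of the pathway, 12 were tested, and ARNT and the HIF inhibitor CITED2 were higher in BA than in E8 (0.31 ± 0.08 and 0.51 ± 0.12) while ARNT2 was lower (-0.61 ± 0.18, all log2 ± SE). Against E6 the same 3 regulators were called in the same directions.

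In the authors' deposited table of DESeq2 results, whose header does not name the reference group, 9 members had an adjusted p below 0.05 in the BA 24 h columns, 18 in those of BA 48 h, 24 in those of E6 48 h and 25 in those of E8 48 h, all with positive log2 fold changes. The share of all 55889 genes called there was 1.62%, 3.49%, 3.85% and 1.39%. SLC16A3 had log2 fold changes of 3.28, 6.06, 4.81 and 5.16 in the authors' deposited table, in that order. EGLN3 had 2.26, 3.16, 2.05 and 0.96 in the authors' deposited table, the last with an adjusted p of 0.237.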

How the data were processed

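RNA from 35 libraries of H9 cells was counted per gene by the authors, and the deposited table holds whole-number counts for 58581 genes on hg38; featureCounts and DESeq2 are named without versions in the submitters' processing notes. The authors' deposited comparison table gives log2 fold changes and adjusted p-values; whether counting used strand is not given in the sources used here. From the counts, edgeR 4.0.16 (R 4.3.3, limma 3.58.1) gave TMM-scaled CPM, low genes were removed with filterByExpr, and quasi-likelihood tests were adjusted by Benjamini-Hochberg over all genes tested. A gene was called at an adjusted p below 0.05. The 6 comparisons of replicated groups were fitted on the 15 libraries of the 5 replicated groups with group alone; media over time and slopes were fitted on the 24 libraries of the time series. An offset of 0.5 CPM was added before log2 within sets.

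The replicate number was taken as a block because same-numbered libraries of different groups deviated together from their group means, at correlations of 0.743 to 0.912 for replicate 1, 0.681 to 0.821 for replicate 2 and 0.618 to 0.765 for replicate 3. Replicate 2 correlated with replicate 3 of other groups at 0.591 to 0.781, so the data separate replicate 1 from replicates 2 and 3 and do not show pairing by number between the latter. The alternatives were the replicate block, RLE scaling, no low count filter, DESeq2 1.42.0, fits on 2 groups only, libraries or hours left out and parts of the time course. Fits on replicates 2 and 3 only, and without 4 libraries that stood apart, were chosen after seeing the data. The members, lists and tests were chosen with earlier results of these data known. Values in every sample are given for members called in a comparison of replicated groups, at most the 8 largest, and for at most 8 per time course; for other lists at most the 6 largest are named. Scripts were tested on simulated data. Gene positions and lengths are those of GENCODE 29 on GRCh38.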

Additional observations from a re-analysis of the deposited data

Results flagged for a closer look

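The change with time differed between BA and E8 in 3 of 42 members, where 9.39% of all genes were called, and between BA and E6 in 5, where 9.17% were, by edgeR's quasi-likelihood test of the difference of slopes with adjusted p over all genes; both tests share the BA libraries. All slopes are log2 units per 24 h over 1 time series.

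Against E8, the slope in BA was steeper by 0.67 ± 0.16 (SE, adjusted p = 0.00948) for the carrier SLC16A1 and by 0.71 ± 0.16 (adjusted p = 0.00468) for the hexokinase HK1. For ADM the difference was -2.49 ± 0.40 (adjusted p = 0.000237).

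Against E6, the slope in BA was steeper by 1.26 ± 0.30 (SE, adjusted p = 0.00762) for PLOD2, by 1.07 ± 0.16 (adjusted p = 0.00014) for HK1, by 0.84 ± 0.24 (adjusted p = 0.0267) for SLC2A3 and by 0.52 ± 0.15 (adjusted p = 0.0241) for PKM. For ADM it was -2.22 ± 0.39 (adjusted p = 0.000621). In replicates 2 and 3 ADM in BA was higher at 48 h than at t0, against the course of the time series.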

How the results depend on the processing

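Counts of called members moved most with the handling of the replicate sets. With the replicate block they were 34 for E8 at 48 h against t0 (4 without it), 10 for BA at 24 h against t0 (5), 14 for BA at 48 against 24 h (0), 8 for BA against E6 at 48 h (2), 2 for E6 against E8 (0) and 2 for BA against E8 (0). Replicates 2 and 3 only gave 42, 28, 36, 22, 19 and 13 in that order. There 51.3, 20.7, 34.1, 36.7, 18.4 and 33.1% of all genes were called. DESeq2 gave 21, 8, 4, 1 and 2 for E8 against t0, BA at 24 h against t0, BA at 48 against 24 h, E6 against E8 and BA against E8. It called 6.08, 3.92, 3.12, 1.05 and 6.03% of all genes there. Fits on the libraries of 2 groups gave 0 for E8 against t0 (0% of all genes), 2 for BA at 24 h against t0 (0.588%) and 1 for BA against E6 (0.38%). Without a low count filter 1 member was called for E8 against t0 (0.0025% of all genes) and 2 for the slopes in E8 and in E6. Leaving out 1 library gave 0 to 12 for E8 against t0, 1 to 3 for BA at 24 h against t0 and 1 to 2 for BA against E6. In the last of these, 1.16 to 3.01% of all genes were called. Over time, 6 to 24 h only gave 8 against E6 and 7 against E8. The fit on 30 to 48 h only lost several calls. Among them were SLC2A1, PDK1 and HK2 against E6 (adjusted p 0.709, 0.135 and 0.082) and BNIP3 against E8 (0.225). Leaving out 1 hour gave 11 to 19 against E6, 0 to 1 for the slope in E6 and 15 to 23 for that in BA, and 13 to 23 against E8, and leaving out the 4 libraries that stood apart gave 12 for the slope in E8 and 6 in E6. The share of all genes is not given here for the 6 to 24 h fits or the unfiltered slopes. It is also missing for the slopes without those 4 libraries and for most slopes without 1 hour. Such counts are not read as results about the members. The log2 change of HIF1A in E8 against t0 ran from -0.96 without E8 replicate 1 to 0.091 without t0 replicate 1, where its sign turned. HIF1A was at 433, 212 and 215 CPM in t0 replicates 1, 2 and 3 and at 373, 149 and 143 in E8 at 48 h. It was thus lower at 48 h in each pair of the same number. The cause of the turned sign was not tested. Of 11 calls in replicated groups, 1 (PLOD2 in BA against E6) was called under all alternatives run, of 35 between media over time 8 were, and of 25 slopes 12. Low counts limit CA9, ANKRD37, ANGPTL4 and EPAS1.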

Other observations

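Single libraries of the time series stood out in the members. In BA at 42 h, 16 of 41 members were at least 1.5-fold above both neighbouring hours, where 3.14% of all genes were. The same held for 11 members in E8 at 18 h (2.77% of all genes) and 6 in E8 at 36 h (3.71%). In E6 at 18 h, 5 of 41 members lay above both hours (15.6% of all genes) and 7 below both (21.2%). Neither count in that E6 library exceeded the background share. Each of these hours has 1 library, so there is no replicate check.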
